A study of Stylosanthes guianensis with 6 samples.

Results

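The genes described here are 33 unigenes of stylo (Stylosanthes guianensis), a tropical forage legume, grouped as defense-related receptor and protein kinases. Defense-related refers to the study's list and not to their names, and 3 of them are kinases of small molecules. A unigene is a gene-level sequence assembled from the reads, since no genome was used. The members were all unigenes on the study's list of defense response DEGs (differentially expressed genes) whose description contains the word kinase, leaving out disease resistance proteins. They make up 33 of the 631 unigenes on that list and 33 of the 102864 unigenes in the expression tables. The list was drawn from the same leaves and the same Mn comparison that are described below. The direction of each member and its distance from the control were therefore fixed by that choice, so they are given as descriptions without p-values.

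The study compared stylo leaves at a control and at a toxic Mn supply. Seedlings of the genotype TF303 grew for 30 d in Hoagland nutrient solution and then for 10 d in fresh solution with 5 μM MnSO4 (control) or 400 μM MnSO4 (Mn toxicity). Both groups were the same genotype, without any transgene or mutation. Each group had 3 libraries, and the study's methods name a hydroponic box of several seedlings as 1 biological replicate. Leaf RNA was measured as RPKM, that is, by read number corrected for unigene length and library total.

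Receptor-like kinases sit in the plasma membrane, where an outer domain binds a ligand or cell wall material and an inner kinase domain passes the signal on. Cytoplasmic kinases, such as receptor-like cytoplasmic kinases and MAP kinase kinase kinases (MAPKKKs), act below these receptors and relay the signal to ion channels, oxidases and transcription factors. In leaves both kinds are best known from immunity, growth and the sensing of wall damage. The members were sorted by their descriptions into 22 receptor-like kinases, 8 cytoplasmic protein kinases and 3 enzymes that phosphorylate small molecules. The descriptions of the 8 name a protein kinase without a receptor, but none places it in the cytoplasm. That side was therefore assigned, and a description as broad as tyrosine kinase family protein leaves the type open.

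Library totals recovered from the RPKM were 31.1 to 37.8 M mapped reads, so 1 read on a unigene of 1 kb was worth 0.0265 to 0.0321 RPKM. A set of 40 unigenes was picked for being abundant and uneven, with at least 0.1% of the reads in some library and over 8 times its lowest share there. This set took 23.7 and 38.7% of the reads in Mn replicates 1 and 3 and 0.970 to 1.78% in the other 4 libraries, a contrast that the choice favours. RPKM are relative to the library total, and the median log2 fold change over all 30913 tested unigenes was −0.20. Median-of-ratios scaling, which sets libraries to a common level of the typical unigene, moved this median to −0.00059. Chloroplast-encoded leaf transcripts were detected in all 6 libraries, and the unigene of photosystem II protein D1 (DN43869_c1_g4) had 37.2, 72.3 and 58.7 RPKM in control replicates 1 to 3 and 710, 45.5 and 1267 RPKM in Mn replicates 1 to 3. Whether these shifts of composition take part in any value below was not tested. In whole leaves, fewer cells of a type and less RNA per cell cannot be told apart.

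Of the 33 members, 23 had a higher mean RPKM under Mn toxicity than in the control and 10 had a lower one. In 20 members all Mn libraries lay above all control libraries, in 10 all lay below, and in 3 the groups overlapped. Among all tested unigenes 9.41% lay wholly above and 22.6% wholly below. The median ratio of the Mn mean to the control mean was 2.37 for the members that were higher and 0.375 for those that were lower. Unigene IDs are given without their common prefix TRINITY_, and values follow the order of replicates 1 to 3.

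**Figure D1:**
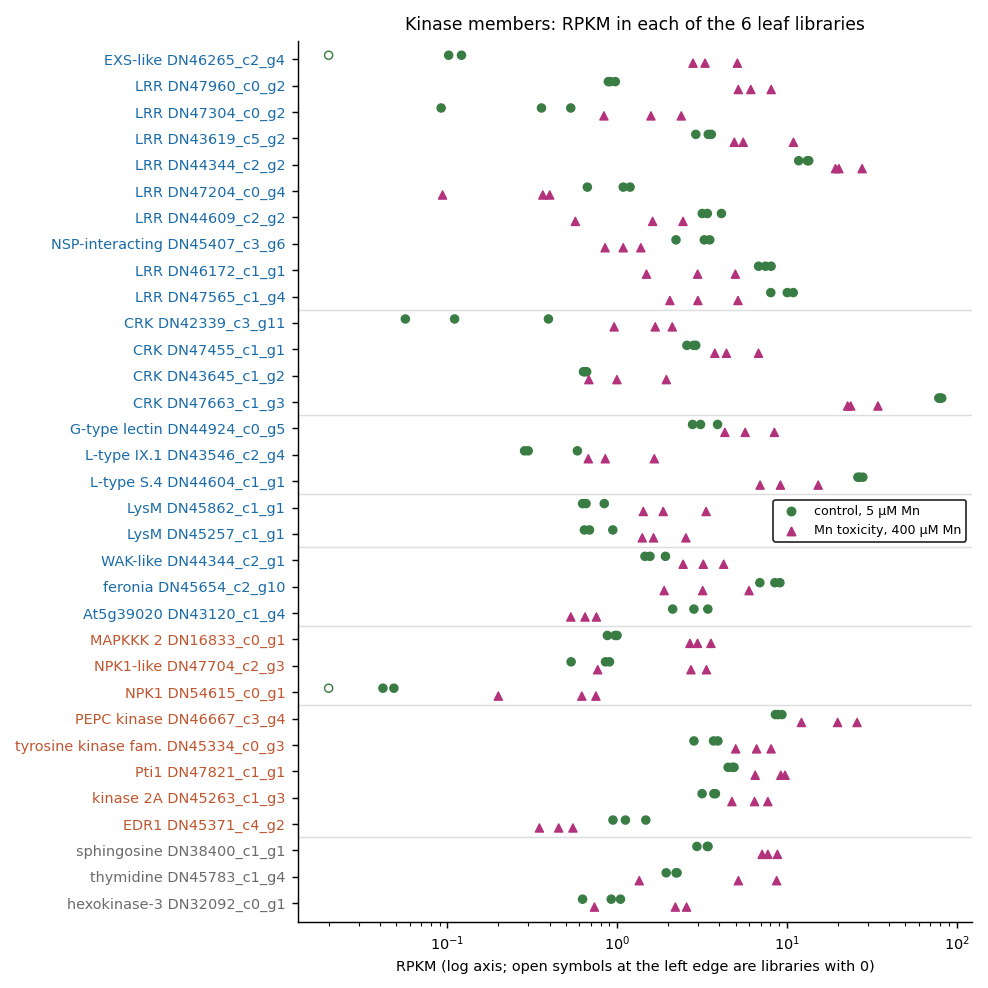
RPKM of each of the 33 members in the 3 control (circles) and 3 Mn toxicity (triangles) libraries, on a log axis and grouped by class; label colours separate receptor-like (blue), cytoplasmic (orange) and small-molecule (grey) kinases. The groups overlap in 3 members, NPK1-like, thymidine kinase and hexokinase-3, and open symbols mark the 2 libraries with 0.

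The 10 leucine-rich repeat (LRR) receptor-like kinases were the largest class and were evenly divided, with 5 higher and 5 lower under Mn toxicity and no overlap in any of them. LRR kinases carry an outer domain of leucine-rich repeats that reads peptides, steroids or pieces of microbes. The most distinct member was DN46265_c2_g4, described as EXS-like, after a kinase that in Arabidopsis is needed for the inner anther wall. It had 0, 0.102 and 0.121 RPKM in the control and 3.30, 5.11 and 2.80 RPKM under Mn toxicity. It was thus almost silent in every control library and clearly present in every Mn library. The unigene is a short one of 265 bp, on which 3 reads were worth up to 0.364 RPKM in the control. Behind these values were 2 control reads and 110 Mn reads, a ratio of 51.4 per mapped read with an exact 95% interval of 13.9 to 430, which covers counting error only. The fitted log2 fold change was 2.85 ± 0.32 (SE), on the log2(RPKM + 0.5) scale used for all fitted values here.

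A second LRR kinase, DN47960_c0_g2, known only by its family, had 0.911, 0.888 and 0.976 RPKM in the control and 6.13, 5.18 and 8.09 RPKM under Mn toxicity. The control libraries were nearly equal and the lowest Mn library was several times above them, with a fitted log2 fold change of 2.27 ± 0.28. DN47304_c0_g2, another LRR kinase without a closer name, had 0.0921, 0.359 and 0.534 RPKM in the control and 1.58, 2.39 and 0.837 RPKM under Mn toxicity. Its Mn replicate 3 came close to control replicate 3, and its fitted log2 fold change was 1.31 ± 0.38.

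The other 2 higher LRR members shared a description, that of the Arabidopsis kinase At1g05700, which combines leucine-rich repeats with a malectin-like domain. DN43619_c5_g2 averaged 3.31 ± 0.36 RPKM in the control and 7.13 ± 3.32 RPKM under Mn toxicity (SD, n = 3). DN44344_c2_g2 averaged 12.8 ± 0.93 and 22.5 ± 4.62 RPKM (SD, n = 3). Both were near a doubling in mean RPKM, and the former varied more among the Mn libraries.

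The 5 lower LRR members began from control levels of 0.983 to 9.67 RPKM. DN47565_c1_g4, of the LRR kinase family, had 10.1, 10.9 and 8.05 RPKM in the control and 2.99, 5.16 and 2.05 RPKM under Mn toxicity. DN46172_c1_g1, described as At3g47570, had 8.08, 6.82 and 7.49 RPKM in the control and 2.98, 4.98 and 1.49 RPKM under Mn toxicity. In both, Mn replicate 2 was the library nearest to the control. Their fitted log2 fold changes were −1.45 ± 0.33 and −1.24 ± 0.36.

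DN45407_c3_g6 was described as an NSP-interacting kinase, which in Arabidopsis is the target of a viral shuttle protein and acts in antiviral defense. It had 2.22, 3.26 and 3.51 RPKM in the control and 1.38, 1.09 and 0.850 RPKM under Mn toxicity, with a fitted log2 fold change of −1.12 ± 0.30. The highest Mn library stood below the lowest control library by less than the control libraries differed among themselves. DN44609_c2_g2 averaged 3.57 ± 0.49 and 1.55 ± 0.94 RPKM in control and Mn libraries (SD, n = 3). DN47204_c0_g4 was the weakest of the class among the lower ones, with 0.983 ± 0.28 and 0.287 ± 0.17 RPKM (SD, n = 3).

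The 4 cysteine-rich receptor-like kinases (CRKs) carry outer domains with a conserved cysteine motif and are widely linked to reactive oxygen and pathogen responses. They held the most abundant of all 33 members, DN47663_c1_g3, with 78.6, 81.8 and 79.8 RPKM in the control and 23.8, 34.4 and 22.8 RPKM under Mn toxicity. The control libraries were tightly grouped and the Mn libraries far below them, and the fitted log2 fold change was −1.57 ± 0.21. The other 3 CRKs went the opposite way.

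DN42339_c3_g11 had 0.0566, 0.110 and 0.394 RPKM in the control and 1.68, 0.961 and 2.12 RPKM under Mn toxicity. It rested on 9 control reads and 87 Mn reads, a ratio of 9.03 per mapped read (exact 95% interval 4.54 to 20.4), and the fitted log2 fold change was 1.59 ± 0.35. DN47455_c1_g1, described as At4g00960, had 2.58, 2.91 and 2.82 RPKM in the control and 4.41, 6.81 and 3.77 RPKM under Mn toxicity, a fitted log2 fold change of 0.71 ± 0.29. Here the separation was clear but under a doubling in mean RPKM. DN43645_c1_g2, described as CRK26, had 0.646, 0.662 and 0.634 RPKM in the control and 0.998, 1.95 and 0.682 RPKM under Mn toxicity. Its Mn replicate 3 was only just above the control, and its fitted log2 fold change of 0.51 ± 0.34 was the smallest in size among the fitted members.

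The 2 LysM receptor kinases, relatives of the receptors that bind chitin and the nodulation signals of rhizobia in legumes, were weakly expressed and both higher under Mn toxicity. DN45862_c1_g1 had 0.656, 0.627 and 0.841 RPKM in the control and 1.87, 3.35 and 1.43 RPKM under Mn toxicity. DN45257_c1_g1 had 0.944, 0.642 and 0.688 RPKM in the control and 1.41, 2.54 and 1.64 RPKM under Mn toxicity. Neither overlapped between the groups, and the fitted log2 fold changes were 1.11 ± 0.34 and 0.89 ± 0.31.

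The 3 lectin receptor-like kinases carry an outer domain that resembles sugar-binding lectins. The L-type kinase S.4-like (DN44604_c1_g1) had 26.9, 26.2 and 28.0 RPKM in the control and 9.17, 15.3 and 6.96 RPKM under Mn toxicity. It was the second most abundant receptor-like member in the control, and its fitted log2 fold change was −1.40 ± 0.28. The G-type lectin S-receptor-like kinase (DN44924_c0_g5) had 3.10, 3.91 and 2.79 RPKM in the control and 5.68, 8.45 and 4.32 RPKM under Mn toxicity, with a fitted log2 fold change of 0.78 ± 0.30. The L-type kinase IX.1-like (DN43546_c2_g4), a type with a role in pathogen resistance in Arabidopsis, had 0.584, 0.300 and 0.285 RPKM in the control and 0.852, 1.66 and 0.677 RPKM under Mn toxicity. Its control replicate 1 nearly reached Mn replicate 3, and the fitted log2 fold change was 0.78 ± 0.34. The L-type lectin kinases thus lay on both sides of the control.

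The 3 remaining receptor-like members have outer domains that are linked to the cell wall. The feronia receptor-like kinase (DN45654_c2_g10), named for a kinase that in Arabidopsis binds RALF peptides and monitors the wall, had 6.94, 8.50 and 9.10 RPKM in the control and 3.19, 5.99 and 1.89 RPKM under Mn toxicity. Mn replicate 2 lay close to control replicate 1, and the fitted log2 fold change was −1.16 ± 0.36. DN43120_c1_g4, described as At5g39020, had 3.43, 2.84 and 2.13 RPKM in the control and 0.648, 0.756 and 0.534 RPKM under Mn toxicity. All 3 of its Mn libraries were close together and far below the control, with a fitted log2 fold change of −1.51 ± 0.30. The wall-associated kinase-like 16 (DN44344_c2_g1), of a family that binds pectin, had 1.56, 1.46 and 1.93 RPKM in the control and 3.22, 4.25 and 2.45 RPKM under Mn toxicity, a fitted log2 fold change of 0.80 ± 0.30. It came from the same assembly component as the LRR member DN44344_c2_g2, so the pair may share reads.

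**Figure D2:**
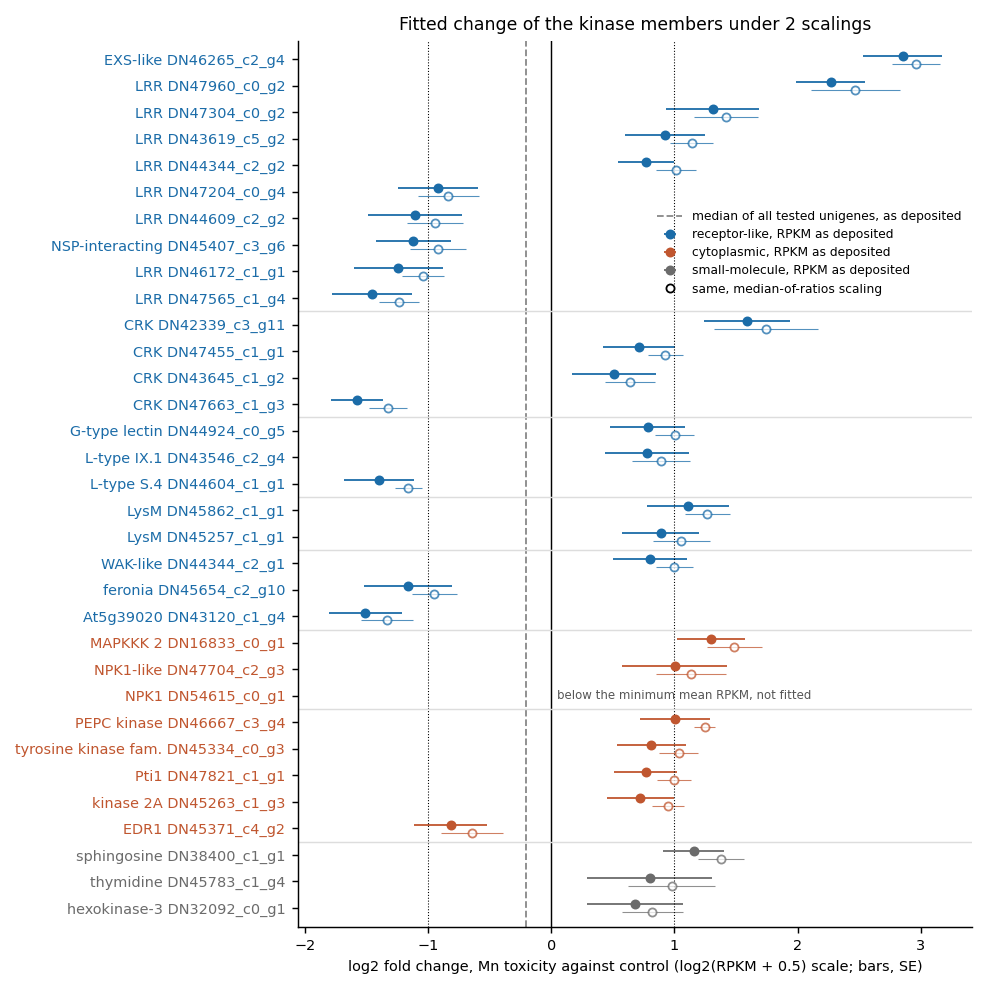
Fitted log2 fold change (Mn toxicity against control, on log2(RPKM + 0.5)) with its SE for 32 members, from the deposited RPKM (filled) and with median-of-ratios scaling (open); dotted lines mark 1 and −1, and the dashed line the median of all tested unigenes, −0.20. The receptor-like members lie on both sides of 0, whereas EDR1 is the only cytoplasmic member below it.

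The 3 members described as MAPKKKs, a kinase type that starts the MAP kinase cascades, all had higher means under Mn toxicity. The Raf-like EDR1, given below with the other cytoplasmic kinases, was not counted here because its description does not say MAPKKK, and it was lower. MAPKKK 2-like (DN16833_c0_g1) had 0.974, 0.877 and 0.9998 RPKM in the control and 2.69, 3.57 and 2.98 RPKM under Mn toxicity. Every Mn library was well above every control library, and the fitted log2 fold change was 1.30 ± 0.28. The NPK1-like unigene (DN47704_c2_g3), named for a tobacco MAPKKK of cell division and resistance to virus, had 0.902, 0.536 and 0.855 RPKM in the control and 2.73, 3.36 and 0.769 RPKM under Mn toxicity. Mn replicate 3 fell within the control range while the other Mn libraries were high, and the fitted log2 fold change was 1.002 ± 0.43. The other NPK1 unigene (DN54615_c0_g1) had 0.0418, 0 and 0.0485 RPKM in the control and 0.200, 0.751 and 0.620 RPKM under Mn toxicity. It was below the minimum mean of 0.5 RPKM and was not fitted, and its 4 control reads and 77 Mn reads gave a ratio of 18.0 per mapped read (exact 95% interval 6.75 to 67.7).

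Of the 5 other cytoplasmic kinases, 4 were higher in every Mn library than in every control library. Phosphoenolpyruvate carboxylase (PEPC) kinase 1-like (DN46667_c3_g4), which phosphorylates PEPC and makes it less sensitive to malate, had 9.36, 8.57 and 8.90 RPKM in the control and 19.9, 25.9 and 12.2 RPKM under Mn toxicity. It was the most abundant cytoplasmic member, and its fitted log2 fold change was 1.01 ± 0.28. The Pti1-like kinase (DN47821_c1_g1), named for a tomato kinase that the resistance kinase Pto phosphorylates, had 4.89, 4.51 and 4.76 RPKM in the control and 9.22, 9.76 and 6.51 RPKM under Mn toxicity. Its control libraries differed little, and its fitted log2 fold change was 0.77 ± 0.25.

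The tyrosine kinase family protein (DN45334_c0_g3) had 3.93, 3.70 and 2.84 RPKM in the control and 6.63, 8.08 and 5.00 RPKM under Mn toxicity. Protein kinase 2A, chloroplastic-like (DN45263_c1_g3), a name used in Arabidopsis for a receptor-like cytoplasmic kinase, had 3.72, 3.17 and 3.80 RPKM in the control and 6.45, 7.73 and 4.75 RPKM under Mn toxicity. Both stayed apart from the control by less than a doubling in mean RPKM, with fitted log2 fold changes of 0.81 ± 0.28 and 0.73 ± 0.27. The exception was EDR1 (DN45371_c4_g2), a Raf-like kinase that in Arabidopsis holds back cell death and resistance to powdery mildew. It had 0.946, 1.12 and 1.48 RPKM in the control and 0.549, 0.349 and 0.453 RPKM under Mn toxicity, with a fitted log2 fold change of −0.82 ± 0.30. It was the only cytoplasmic member whose Mn libraries were all below the control.

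The 3 small-molecule kinases had higher means under Mn toxicity, but in 2 of them the groups overlapped. Sphingosine kinase 1-like (DN38400_c1_g1), which makes a phosphorylated sphingolipid signal, had 3.43, 2.95 and 3.40 RPKM in the control and 7.73, 8.80 and 7.15 RPKM under Mn toxicity. Its Mn libraries agreed closely and its fitted log2 fold change was 1.16 ± 0.25. Thymidine kinase (DN45783_c1_g4), an enzyme of nucleotide salvage, had 1.95, 2.26 and 2.23 RPKM in the control and 5.18, 8.71 and 1.35 RPKM under Mn toxicity. Hexokinase-3 (DN32092_c0_g1), of the enzymes that phosphorylate glucose, had 1.05, 0.627 and 0.924 RPKM in the control and 2.205, 2.57 and 0.736 RPKM under Mn toxicity. In both, Mn replicates 1 and 2 were high while Mn replicate 3 was in or under the control range.

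Set side by side, receptor-like and cytoplasmic members differed in how evenly they were divided. Of the 22 receptor-like members 13 were higher and 9 lower, while of the 8 cytoplasmic members 7 were higher and 1 lower. The median fitted log2 fold change was 0.74 for the receptor-like members, with a range from −1.57 to 2.85. For the 7 fitted cytoplasmic members it was 0.81, with a range from −0.82 to 1.30. The most extreme values in both directions thus belonged to receptor-like members, whereas the medians lay near each other. With RPKM set to the same sum in every library they were 0.38 and 0.46. No test was made between the sides, since both were chosen on this comparison. Cytoplasmic kinases outside the defense response list were also found lower, and the 2 named next were chosen after their values were seen and passed as lower. MAP kinase 15 (DN47629_c1_g1) averaged 74.8 ± 4.77 RPKM in the control and 32.2 ± 13.4 RPKM under Mn toxicity (SD, n = 3). The receptor-like cytosolic kinase RBK2 (DN47050_c5_g1) averaged 39.8 ± 1.58 and 15.9 ± 4.93 RPKM (SD, n = 3). On the list itself, 15 unigenes outside the wording of the rule carry a kinase term, though not all are kinases. Of these, 10 were fitted higher and 5 lower. The lower ones include a CBL-interacting kinase 12-like unigene (DN42827_c2_g11, −1.28 ± 0.21) and an ANP1-like MAPKKK (DN28391_c0_g1, −1.23 ± 0.25). The split of 7 and 1 thus holds only for the wording of the rule and for the sorting by description.

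The outer domain classes were divided in different ways. LRR, cysteine-rich, lectin and cell wall receptors each held members on both sides of the control, and only the 2 LysM members went the same way.

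Higher and lower members also began from different levels. The 23 higher members had a median control level of 0.950 RPKM, with a range from 0.0301 to 12.8 RPKM. The 10 lower members had a median control level of 5.52 RPKM, with a range from 0.983 to 80.0 RPKM. Over all tested unigenes the medians were 2.81 RPKM for those fitted higher and 5.96 RPKM for those fitted lower. A lower starting level of the higher unigenes was thus shared with the whole table.

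Calls were made with limma's moderated test over all tested unigenes. A unigene passed where its adjusted p was below 0.05 and its fitted log2 fold change reached 1 in either direction. Among the 32 fitted members 9 passed, 5 higher and 4 lower. Of all tested unigenes 5.78% passed, 2.09% higher and 3.69% lower. The higher ones were EXS-like DN46265_c2_g4, DN47960_c0_g2, CRK DN42339_c3_g11, MAPKKK 2-like and sphingosine kinase. The lower ones were CRK DN47663_c1_g3, L-type lectin kinase S.4-like, DN43120_c1_g4 and LRR DN47565_c1_g4. Because the choice used this comparison, nothing is read from that count. After median-of-ratios scaling 15 members passed as higher and 5 as lower, against 4.37% and 3.77% of all tested unigenes (8.14% in both directions), so the split moved from 5 and 4 towards the higher side.

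The rule carries the fold limit of the study's own test. In the fit, 17 members reached 1 in size from the deposited values, and 20 did so once median-of-ratios scaling was applied. Just past that limit after scaling were the wall-associated kinase-like member at 1.001 and the G-type lectin kinase at 1.002. Just short of it were Pti1 at 0.996, thymidine kinase at 0.977 and the feronia kinase at −0.95. The smallest after scaling were EDR1 at −0.64 and CRK26 at 0.64. Kinases that missed the limits of the study carry no description in the sources used here, so their values were not analysed.

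Leaving out 1 library at a time kept the sign of all 32 fitted members. The members were chosen for their change in these same libraries, which favours a kept sign, so nothing is read from it. The count of members that passed was 3 without Mn replicate 1 or without any 1 of the control libraries, 13 without Mn replicate 2 and 16 without Mn replicate 3. The share of all tested unigenes that passed in each of these fits is not given. Nothing about the members is therefore read from the change in count. The 3 members that passed in all 6 of these fits were EXS-like DN46265_c2_g4, DN47960_c0_g2 and CRK DN47663_c1_g3.

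The Mn libraries took the same order in nearly all members. Mn replicate 2 was the highest Mn library in 28 of the 32 fitted members and Mn replicate 3 was the lowest in 27. In members that were higher, Mn replicate 3 was therefore the nearest to the control, with a median of 0.47 above the control mean on the log2 scale, against 0.94 and 1.29 in Mn replicates 1 and 2. In members that were lower, Mn replicate 3 was the farthest, with a median of −1.82 against −1.21 and −0.82. Over all tested unigenes Mn replicate 2 was also the highest Mn library in 80.5% and Mn replicate 3 the lowest in 82.4%. The order was thus shared with the whole table. The coefficient of variation was larger under Mn toxicity than in the control in 27 of the 33 members. The same held for 27890 of the 30913 tested unigenes.

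**Figure D3:**
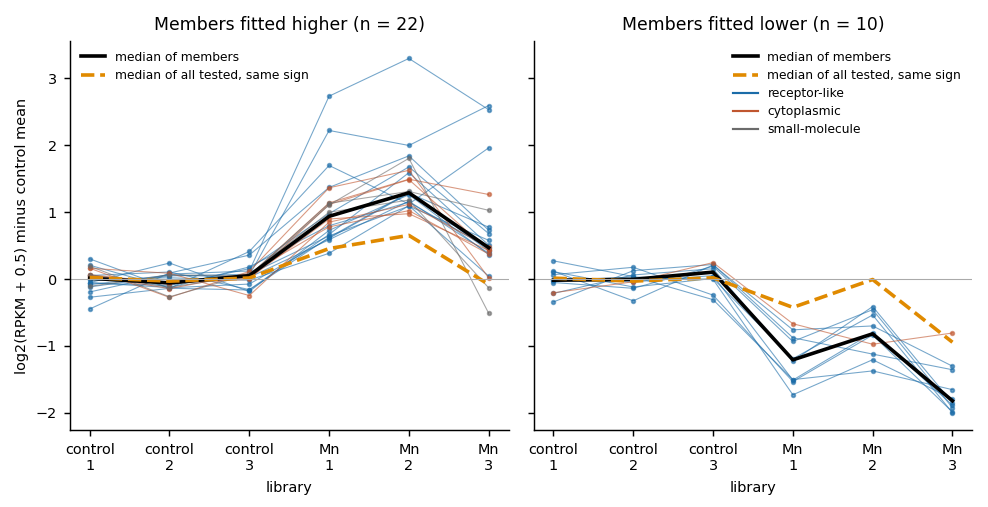
log2(RPKM + 0.5) minus the control mean in each library for the 22 fitted members that were higher (left) and the 10 that were lower (right); thin lines are members, the thick black line their median and the dashed line the median of all tested unigenes of the same sign, and lines only join the values of 1 unigene. Mn replicate 2 is highest and Mn replicate 3 lowest in most members of both panels.

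Trinity puts sequences that share stretches into 1 component, and other unigenes of the members' components, here called sister unigenes, were not chosen by the rule. They can be alleles, copies or fragments of the same gene and may share its reads, or they can be unrelated genes joined by a short stretch. The 33 members lay in 32 components, 27 of which held sister unigenes above 0, and 87 of those passed the minimum. Of these 87, 2 passed the limits as higher and 0 as lower, where 2.09% and 3.69% of all tested unigenes passed. Only the higher share was thus near that of all tested unigenes, and the lower share was below it. After median-of-ratios scaling 5 passed as higher and 1 as lower. Leaving out 1 library gave 14 without Mn replicate 2, 1 without Mn replicate 1 and 0 without any 1 of the control libraries. These counts lack the share of all tested unigenes in the same fits, so nothing is read from them. The median log2 fold change was −0.11, against −0.20 over all tested unigenes, and 0.10 after scaling. Beside members that were higher, 24 sister unigenes were fitted higher and 31 lower. Beside members that were lower, 9 were fitted higher and 23 lower. Over all tested unigenes 10925 were fitted higher and 19988 lower, so a majority of lower values was shared with the whole table. Whether sister unigenes follow the direction of their member was not tested.

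One sister unigene that passed was a second lectin receptor kinase, DN43546_c2_g1, beside the L-type kinase IX.1-like. It had 1.75, 1.35 and 1.55 RPKM in the control and 3.68, 3.71 and 5.09 RPKM under Mn toxicity. Its log2 fold change was 1.18 ± 0.28 (limma, adjusted p = 0.034), against 0.78 ± 0.34 for the member. The other was DN42339_c3_g9, a heavy metal-associated domain protein beside a CRK, with 6.18, 5.29 and 5.80 RPKM in the control and 14.4, 23.4 and 16.1 RPKM under Mn toxicity. Its log2 fold change was 1.53 ± 0.25 (limma, adjusted p = 0.008), and its description is not that of a kinase.

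Both of these are also on the study's DEG lists, drawn from the same comparison. Of the 82 tested sister unigenes that are on none of the lists at hand, 0 passed in limma, and 0 passed with limma voom on recovered reads and library totals. At an unadjusted limma p below 0.05 there were 11 of the 82, a smaller share than the 24.4% of all tested unigenes (7529 of 30913). Of the 11, 2 were higher and 9 lower. Most unigenes of the whole table were also fitted lower, 19988 against 10925 higher, so nothing is read from that split. After median-of-ratios scaling 2 of the 82 passed.

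**Figure D4:**
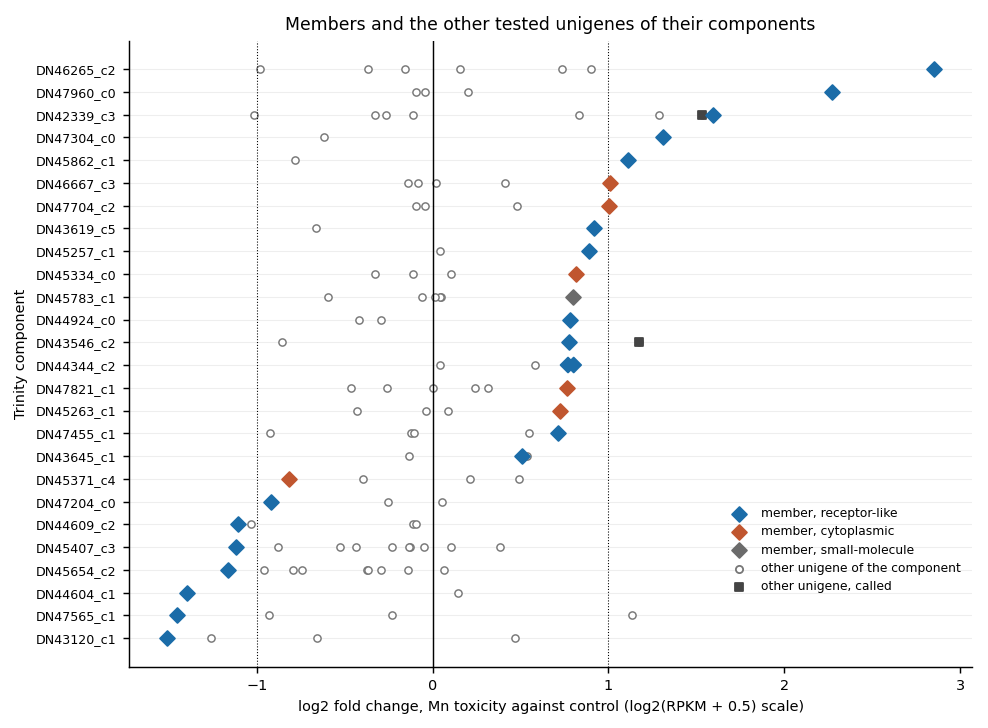
log2 fold change (log2(RPKM + 0.5) scale) of fitted members (diamonds) and of the 87 other tested unigenes of their components (open circles; squares where they passed the limits), 1 row for each of the 26 components that hold both. Of the 87 sister unigenes 83 lie nearer to 0 than the member of their row, which was chosen for its change, and 2 squares lie above 1.

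Unigenes of kinds linked to kinase signalling or defense, here called partner unigenes, were picked by description from the same list of defense response DEGs. Their counts are therefore also descriptions, and whether any of them acts with a member was not tested. Over all tested unigenes 2.09% passed as higher and 3.69% as lower, and 22.6% lay wholly below the control. On the side of perception, all 7 receptor-like proteins without a kinase, which bind ligands and need partner kinases to signal, were lower in every Mn library than in every control library, and 5 passed as lower and 0 as higher. The largest change was that of DN46779_c0_g1, which averaged 5.39 ± 0.90 RPKM in the control and 1.15 ± 0.74 RPKM under Mn toxicity (SD, n = 3). The LRR kinases, with a related outer domain, were divided evenly as described above.

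In signal relay, 2 of 6 calcium signalling unigenes passed as higher and 0 as lower, and after median-of-ratios scaling 3 passed as higher and 2 as lower. The calcium-binding CML19 (DN50706_c0_g1) averaged 0.489 ± 0.38 and 2.33 ± 0.35 RPKM (SD, n = 3). The 2 unigenes described as cyclic nucleotide-gated channel 20, an ion channel type, lay below the control in every Mn library. Their fitted log2 fold changes were −1.18 ± 0.32 (DN46597_c1_g5) and −1.32 ± 0.36 (DN44765_c1_g1). All 3 tested of 4 BON1-associated proteins, which in Arabidopsis restrain cell death, passed as higher. Among them DN28418_c0_g1 averaged 0.576 ± 0.079 RPKM in the control and 6.46 ± 1.81 RPKM under Mn toxicity (SD, n = 3), with a log2 fold change of 2.66 ± 0.31. The fitted value was larger than that of every kinase member except EXS-like DN46265_c2_g4, at 2.85 ± 0.32.

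Of 7 ubiquitin ligases, some of which turn over receptor kinases, 2 passed as higher and 1 as lower, and the U-box protein 21 (DN48167_c0_g1) averaged 2.38 ± 0.21 and 10.99 ± 2.69 RPKM (SD, n = 3). Of 4 secretion unigenes 1 passed as higher, syntaxin-121 (DN45435_c2_g2), a membrane fusion protein of wall defense, with 9.94 ± 1.14 and 21.2 ± 4.97 RPKM (SD, n = 3). Of 5 WRKY transcription factors, common targets of MAP kinase cascades, 4 were tested and 2 passed as higher. WRKY51 (DN45007_c4_g3) averaged 4.70 ± 0.30 and 13.1 ± 1.92 RPKM (SD, n = 3).

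Of 8 chitinases and glucanases, enzymes that attack fungal walls, 4 passed as higher and 0 as lower. A beta-1,3-glucanase (DN34947_c0_g2) had 3 reads in the control and 171 reads under Mn toxicity, a ratio of 53.3 per mapped read (exact 95% interval 17.9 to 261). A SnRK1-interacting protein (DN46877_c2_g5) averaged 0.950 ± 0.15 and 2.08 ± 0.85 RPKM (SD, n = 3) and did not pass. A 14-3-3-like protein (DN22305_c0_g1), of a family that binds phosphorylated targets, had 0.242, 0.0589 and 1.26 RPKM in the control and 0 in all 3 Mn libraries, where most control reads came from replicate 3.

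PEPC, the target of PEPC kinase, was on the list as 1 unigene (DN45983_c2_g3). It had 33.8, 32.4 and 29.9 RPKM in the control and 173, 317 and 153 RPKM under Mn toxicity. Its libraries kept the order seen in PEPC kinase, with Mn replicate 2 highest and Mn replicate 3 lowest. That order is not particular to the pair. Over all tested unigenes Mn replicate 2 was the highest Mn library in 80.5% and Mn replicate 3 the lowest in 82.4%. The log2 fold change was 2.65 ± 0.27 for PEPC and 1.01 ± 0.28 for its kinase.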

How the data were processed

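According to the study's methods, the authors assembled clean reads with Trinity, mapped them with Bowtie2 2.2.3 and estimated unigene abundance with RSEM. The authors deposited the values as RPKM in 1 table per library, without a stated scaling between libraries or filter. The sample labels give Mn in mM, while the series design and the methods give μM, which was used.

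Members, classes and partner lists were chosen with earlier results of these data known. The class of each member was read from its description. All 33 members are named, sister unigenes where they passed, and partner unigenes where their list was short or their change the largest.

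Unigenes whose mean RPKM reached 0.5 were fitted on log2(RPKM + 0.5) with limma 3.58.1 in R 4.3.3 (intensity trend, Benjamini-Hochberg adjustment over all 30913 unigenes, two-sided). DESeq2, which the authors used on counts, was not run on RPKM. Group values are means with SD. Whole reads were recovered from the RPKM steps (within 0.01 read) in Python 3.11.15 (with numpy 2.4.6, pandas 2.3.3) and amounted to 99.58 to 99.75% of the library totals. Both procedures were tested on simulated data. Alternatives were other scalings, pseudocounts, minimum levels, no trend, a replicate block, limma voom on recovered reads (chosen after seeing the data) and leaving out each library. Sequences of the members were not used here.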

Additional observations from a re-analysis of the deposited data

How the results depend on the processing

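No member changed direction in any of the 20 alternatives (634 values, of which 561 moved by less than 1 SD of the Mn libraries). The choice of the members on these same libraries favours a kept direction, so nothing is read from it. The number of the 9 members passed became 20 with median-of-ratios scaling, 16 with quantile normalization, 23 with totals that leave out the abundant unigenes and 29 with voom and median-of-ratios scaling. The share of all tested unigenes that passed also moved, from 5.78% as deposited to 8.14% with median-of-ratios scaling. For the other settings that share is not given. The counts in this paragraph therefore describe the settings, and nothing about the members is read from them. For the 2 sister unigenes the numbers were 6, 5, 6 and 7, and 0 with RPKM set to the same sum and 1 with no minimum. For the 21 partner unigenes they were 33 (median-of-ratios), 33 (without abundant unigenes), 36 (voom with median-of-ratios) and 9 (same sum). For the 6 unigenes with a kinase term outside the wording of the rule they were 10 (quantile), 11 (voom with median-of-ratios) and 3 (same sum). The cytoplasmic median was 0.46 with the same sum. Leaving out 1 library gave 3 to 16 members, 0 to 14 sister unigenes, 6 to 29 partners and 1 to 12 of those outside the wording. The replicate numbers do not pair the libraries (correlations of the deviations of 0.08, −0.15 and −0.08 for equal numbers). With a replicate block 13 members, 5 sister unigenes, 25 partners and 6 outside the wording passed, and with the block and median-of-ratios scaling 19, 5, 34 and 8.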

Other observations

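Beside the 33 members, 15 unigenes on the list of defense response DEGs have no kinase in their protein description but a kinase term in their nucleotide match or protein family entry. They are not all kinases: DN42162_c3_g1 and DN42929_c2_g1 are heat shock proteins of the HSP90 type whose ATPase family name mentions histidine kinase, and DN9920_c0_g1 matches a substrate of phytochrome kinase. Of the 15, 10 had higher and 5 lower fitted values, and 7 lay wholly above and 5 wholly below the control. Among all tested unigenes 9.41% lay wholly above and 22.6% wholly below. The 15 were listed on this same comparison, so their counts are descriptions. The lower ones include DN15083_c0_g1, whose protein match is from Chaetomium thermophilum, which is not a plant. It had 5, 1 and 19 reads in control replicates 1 to 3 and 0 in every Mn library, and its mean RPKM was below the minimum. The unigenes named here were chosen after their values were seen. A CRK6-like unigene (DN46822_c1_g1) had 67.1, 73.3 and 75.6 RPKM in the control and 15.1, 25.6 and 17.3 RPKM under Mn toxicity, a log2 fold change of −1.90 ± 0.23. It lay close to the abundant CRK member DN47663_c1_g3 in level and in the size of its change. A CBL-interacting kinase 12-like unigene (DN42827_c2_g11), of a family that acts under calcium sensors, was the most abundant, with 183 ± 3.16 RPKM in the control and 77.1 ± 20.8 RPKM under Mn toxicity (SD, n = 3). A MAPKKK described as ANP1-like (DN28391_c0_g1) had 5.37, 6.33 and 6.31 RPKM in the control and 2.16, 2.43 and 2.22 RPKM under Mn toxicity. It lay below the control, where the 3 members described as MAPKKKs had higher means. A LYK4-like unigene (DN45435_c4_g3), of the LysM type, had 0.917 ± 0.15 and 1.85 ± 0.67 RPKM (SD, n = 3). A CRK-like unigene (DN43645_c0_g4) had 0.695, 0.0565 and 0.336 RPKM in the control and 1.33, 1.79 and 1.61 RPKM under Mn toxicity. A protein kinase without a closer name (DN46979_c1_g1) had 1.47, 1.60 and 0.962 RPKM in the control and 3.13, 5.13 and 4.71 RPKM under Mn toxicity. These last 2 were the ones that passed as higher among the 14 tested. Another 4 passed as lower, among them the substrate DN9920_c0_g1, where 2.09% and 3.69% of all tested unigenes passed as higher and lower.

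Of the entries of the DEG table at hand, which is only a part of it, 47 others were described as kinases outside the defense response list. Of these, 17 were listed as higher and 30 as lower, and 1 and 15 passed in limma, where 2.09% and 3.69% of all tested unigenes passed as higher and lower. The 1 that passed as higher is the lectin receptor kinase DN43546_c2_g1, already described as a sister unigene. The median log2 fold change of the 38 tested was −1.19, against 0.77 for the members, and this difference was not tested. The lowest was an LRR kinase (DN48068_c2_g2) with 4.79, 5.58 and 6.999 RPKM in the control and 0.986, 1.96 and 0.839 RPKM under Mn toxicity.

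A RALF peptide unigene (DN46265_c2_g6), of the ligands that feronia binds in Arabidopsis, shared the component of the EXS-like member and was singled out after its values were seen. It had 2.03, 2.73 and 2.61 RPKM in the control and 4.003, 4.99 and 4.24 RPKM under Mn toxicity. Its groups did not overlap, and its log2 fold change of 0.74 ± 0.27 did not pass (limma, adjusted p = 0.125). The feronia member lay below the control in every Mn library.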
